A study of Rattus norvegicus with 20 samples.

Results

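The complement system is a cascade of secreted proteins that tags cells and debris. C1q, built from the products of C1qa, C1qb and C1qc, recognizes its targets and switches on the protease C1s, and C1 inhibitor, the product of Serping1, blocks C1s. The cascade then cleaves C3 and later C5, whose fragments C3a and C5a act on the receptors C3ar1 and C5ar1, while Cd59 keeps the final pore-forming complex off the cell's own membrane. In the brain C1q is made mainly by microglia, and astrocytes make C3. These 9 genes were chosen by name, as every non-control probe with 1 of these names, out of 25926 genes on the array, because 1 of the groups received PMX53, a blocker of C5ar1. Earlier results of these data were known when they were chosen.

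Gene expression was measured in the arcuate nucleus of the hypothalamus of 20 female Sprague-Dawley rats on postnatal day 15, 4 in each of 5 conditions. SNS rats had mothers injected with saline, no spasms and saline afterwards. BNS, BYS, BYA and BYP rats all had mothers given betamethasone, a synthetic glucocorticoid, on gestational day 15 at 0.4 mg/kg per injection. BNS rats had no spasms and received saline. BYS, BYA and BYP rats had infantile spasms triggered with NMDA, an agonist of glutamate receptors, on postnatal days 12, 13 and 15. They were treated with saline (BYS), ACTH, the pituitary hormone that drives the adrenal cortex (BYA), or PMX53 (BYP), by the labels from postnatal day 13. The study's methods start treatment on postnatal day 12, after the first spasms. The model therefore compares spasms only in betamethasone-primed animals, and no group had spasms without betamethasone. PMX53 acts on the receptor protein, and the arrays measured RNA.

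The 20 samples were the single channels of 11 Agilent arrays, read in 2 colours, on 6 slides. No slide held samples of more than 1 condition, and 1 BYA sample was alone on its slide. Differences between slides and between conditions therefore cannot be told apart. For BYA replicate 3 the labelled dye does not match the order in the raw data's name, and the dye was taken from the label. By that order the channel used would hold the other rat of the array, by its name a male SNS rat of another series. Which of them the channel holds was not tested. Of the spots, between 62.4% in SNS and 79.4% in BYS were well above background (medians of 4 samples), with 65.0% in BYA. In the scaling used here all channels had the same distribution of levels. With each channel only set to the same median, the median log2 difference over all genes was -0.14 between BNS and SNS, 0.15 between BYS and BNS and -0.17 between BYP and BYS, and the share of higher genes among those called between BNS and SNS went from 53.0% to 29.8%. Levels were compared with limma across 17086 genes, 2-sided, in 1 model of the 20 samples that also held the dye. A gene was called when its Benjamini-Hochberg adjusted p was under 0.05.

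Each of the 9 genes had 1 probe of 60 bases, and none was saturated. In the rat build rn4 used by the array, the C1q probes lay next to each other on the minus strand of chromosome 5, C1qb at chr5:155647530-155647589, C1qc at chr5:155656638-155656697 and C1qa at chr5:155662578-155662637. The probes of C1s (chr4:160736725-160736784) and C3ar1 (chr4:159326458-159326517) lay on the minus strand of chromosome 4. Serping1 (chr3:67968812-67968871, minus strand) and Cd59 (chr3:89244707-89244766, plus strand; current RefSeq symbol Cd59b) lay on chromosome 3. C3 was placed on unassigned sequence and C5ar1 was not placed. Because each value below rests on 1 probe, 4 probes whose letters translate into a stretch of the protein are shown, from 5′ to 3′ in the direction of the mRNA.
C1qa: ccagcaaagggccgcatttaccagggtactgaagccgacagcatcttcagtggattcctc
C1qc: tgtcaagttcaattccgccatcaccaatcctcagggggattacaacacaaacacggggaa
C1s: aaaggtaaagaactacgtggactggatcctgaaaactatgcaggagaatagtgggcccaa
C3: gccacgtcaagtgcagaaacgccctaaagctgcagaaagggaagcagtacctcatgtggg
By the array's annotation these probes start at base 697 (C1qa), 435 (C1qc), 2261 (C1s) and 4797 (C3) of their transcripts. Those of C5ar1, C3ar1, C1qb, Serping1 and Cd59 start at bases 1667, 1916, 1028, 1730 and 1101. Whether these 5 read a coding part was not determined, and they are not printed.

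Among the 9 genes, 6 were well above background in all 20 samples (C1qa, C1qb, C1qc, C1s, Serping1 and Cd59), and C3 was so in 18. The receptors were at the limit of the array. C5ar1 was well above background in 9 of 20 samples and C3ar1 in 7. The filter, which asked for all 4 samples of at least 1 condition, kept 8 of the 9 genes and dropped C3ar1. C5ar1 passed only through BYS, so its passing says nothing about a difference. C3 was well above background in 3 of 4 SNS, 3 of 4 BYA and 4 of 4 BNS, BYS and BYP samples. It passed through BNS, BYS and BYP, so its F test and its differences from SNS and BYA are a description. Its mean log2 level was 8.36 in BNS and 8.42 in SNS. In the F test over the 5 conditions 3 of the 8 genes were called, against 30.3% of all genes, namely Serping1 (adjusted p = 9.43e-05), C1qa (0.00202) and C3 (0.0400). For Cd59, C1s, C1qb and C1qc the adjusted p lay between 0.0540 and 0.0636, and for C5ar1 it was 0.677.

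**Figure D1:**
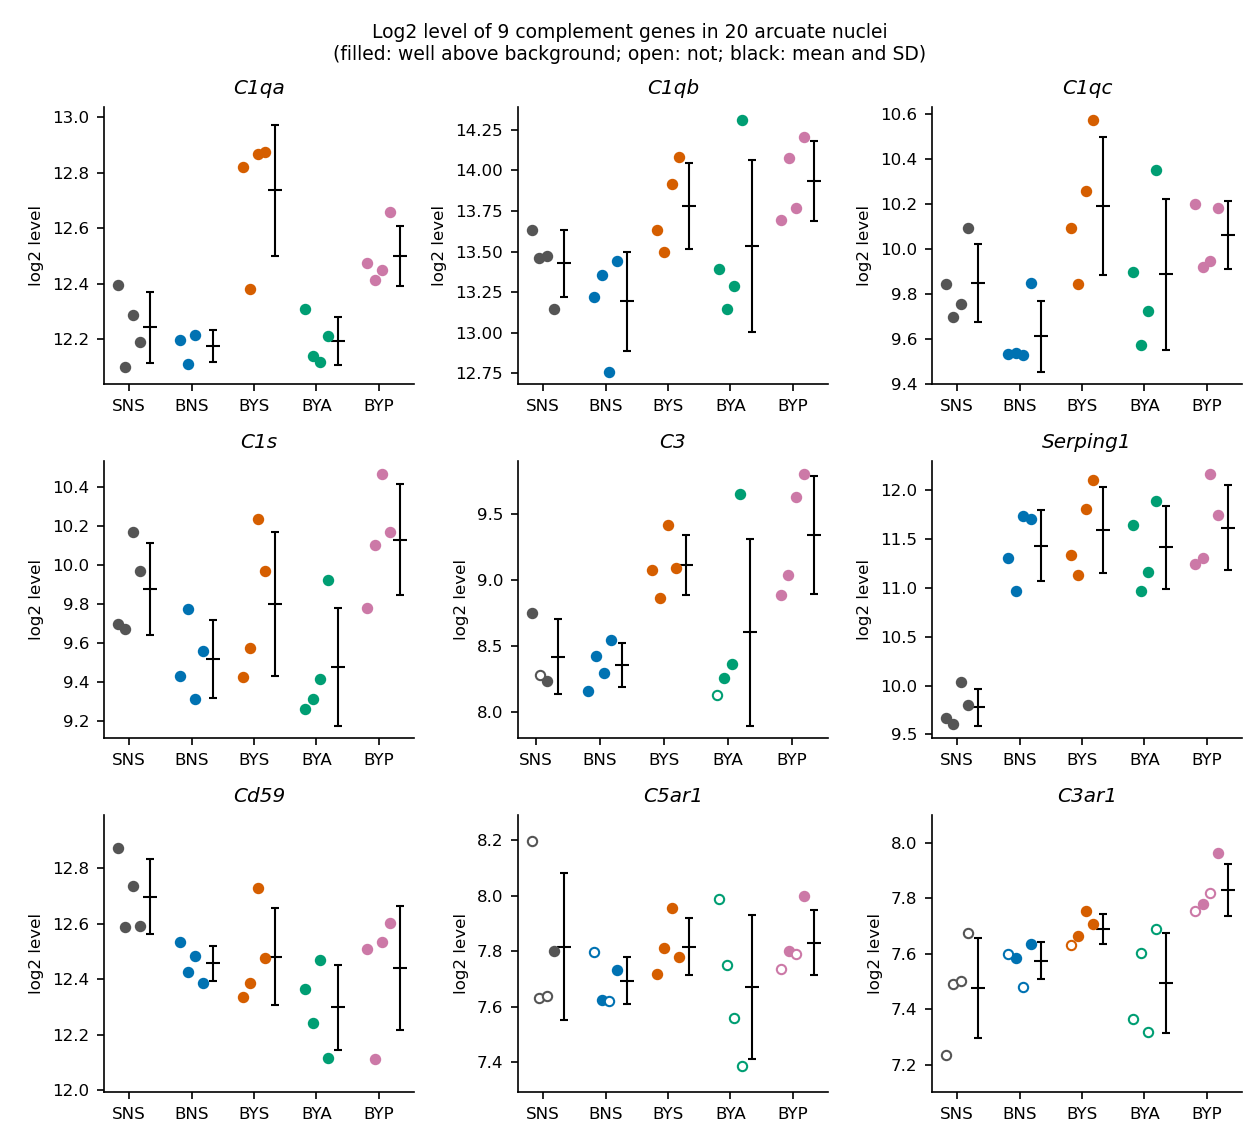
Log2 level (vertical axis) of each of the 9 genes in each sample, by condition; filled points were well above background, open points were not, and black bars are the mean and SD. Serping1 sits between 9.61 and 10.04 in SNS and at 10.97 or above in every other condition, while C5ar1 stays between 7.39 and 8.20 throughout.

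Serping1, the inhibitor of C1r and C1s, was 3.15-fold higher in BNS than in SNS. Its log2 levels were 9.67, 9.61, 10.04 and 9.80 in SNS and 11.31, 10.97, 11.73 and 11.71 in BNS. They were 11.33, 11.13, 11.81 and 12.11 in BYS, 11.65, 10.97, 11.16 and 11.89 in BYA, and 11.24, 11.31, 12.17 and 11.75 in BYP. Every sample of the 4 betamethasone conditions lay above every SNS sample, and these 4 conditions overlapped each other. The log2 difference between BNS and SNS was 1.65 (SE 0.252, adjusted p = 0.000117). It was 1.82 for BYS (adjusted p = 4.98e-05), 1.64 for BYA (adjusted p = 0.000113) and 1.84 for BYP (adjusted p = 4.41e-05), each against the same 4 SNS rats. Of the 8 genes tested, 1 was called between BNS and SNS, against 28.6% of all genes. BNS, BYS, BYA and BYP did not differ from each other beyond their spread in Serping1, with log2 differences from -0.18 to 0.20 and adjusted p from 0.754 to 0.991. The interval of the difference between BYS and BNS ran from -0.37 to 0.69, and that between BYP and BYS from -0.50 to 0.55.

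The other 7 genes were lower in BNS than in SNS by small amounts, and none of them was called. The largest of these differences was in C1s, the protease that Serping1 blocks, at -0.36 (SE 0.190, adjusted p = 0.163). Cd59 was 12.87, 12.59, 12.73 and 12.59 in SNS and 12.53, 12.42, 12.48 and 12.39 in BNS. All BNS samples lay below all SNS samples in Cd59, against 16.9% of all genes, and the difference of -0.24 did not pass (SE 0.102, adjusted p = 0.0845). With the scanner's processed signals it was 0.13, of the opposite sign.

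The genes whose levels were most like those of Serping1 over the 20 samples, after removal of the dye effect, were Cry1 (Pearson r 0.954), Ifi30 (0.950) and Lyz2 (0.950). Within conditions the r values were 0.834, 0.793 and 0.763. Lyz2, the lysozyme of myeloid cells, was higher in BNS than in SNS by 1.04 (SE 0.185, adjusted p = 0.000511). Of the list of 12 blood and myeloid markers 6 were kept, 4 of them higher and 2 lower in BNS than in SNS. Besides Lyz2, only Alas2, an enzyme of haem synthesis in red blood cells, was called (0.99, SE 0.289, adjusted p = 0.0168). The others were Slc4a1 at 0.43 and Hbb at 0.06, both of red blood cells, and the myeloid genes Camp and Cd14, both at -0.12. Their mean log2 level ran from 10.29 to 10.57 in SNS and from 10.56 to 11.04 in BNS. S100a8, S100a9, Ccr2, Mpo and Ngp, which mark neutrophils and monocytes, did not pass the filter. In bulk tissue more cells of a type and more RNA per cell cannot be told apart, and the part of these cells in the Serping1 result was not tested.

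Spasms were compared with no spasms in BYS and BNS. All 8 genes were higher in BYS, with a median log2 difference of 0.43 against 0.00083 over all genes, and none was called, where 0.0293% of all genes were. Among the 8, C5ar1 passed the filter only through BYS, and with median scaling its difference was -0.44. The count of higher genes is therefore a description. The samples of BYS lay above all those of BNS in 3 of the 8, C1qa, C1qb and C3, against 2.58% of all genes. The unadjusted p was under 0.05 in 4 of the 8, the 3 chains of C1q and C3, and in 6.92% of all genes. After adjustment the methods' t-test called none of the 8 in BYS vs BNS or in any of the other comparisons among the 4 betamethasone conditions. Of all genes it called 0.146% in BYP vs BNS and 0% in each of the others, so this says nothing particular about the 8.

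C1qa was 12.20, 12.11 and 12.22 in BNS, where the fourth spot was marked as an outlier and left out. In BYS it was 12.82, 12.38, 12.87 and 12.87. The BYS samples were all higher, replicate 2 by the least. The log2 difference was 0.58 (1.49-fold, SE 0.110, unadjusted p = 6.29e-05, adjusted p = 0.114). Without BYS replicate 2 it was 0.68 and was called (adjusted p = 0.0182).

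C1qb was 13.22, 13.36, 12.76 and 13.44 in BNS and 13.63, 13.50, 13.92 and 14.08 in BYS, a difference of 0.59 (SE 0.209, adjusted p = 0.567). C1qc was 9.53, 9.54, 9.53 and 9.85 in BNS and 10.10, 9.84, 10.26 and 10.58 in BYS, a difference of 0.58 (SE 0.162, adjusted p = 0.436). For C1qc the highest BNS sample reached the lowest BYS sample, and for C1qb the groups were apart. The log2 differences of the 3 chains were between 0.58 and 0.59.

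C3, the protein on which all routes of the cascade meet, was 8.16, 8.43, 8.30 and 8.55 in BNS and 9.08, 8.87, 9.42 and 9.10 in BYS. Every BYS sample was above every BNS sample, and the difference of 0.76 (1.69-fold, SE 0.267) had an adjusted p of 0.567. C1s differed by 0.28 (SE 0.190), Serping1 by 0.16 (SE 0.252), C5ar1 by 0.12 (SE 0.130) and Cd59 by 0.02 (SE 0.102), all with overlapping groups.

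Against SNS rather than BNS, C1qa was called in BYS, higher by 0.49 (SE 0.105, adjusted p = 0.00260), with SNS samples at 12.39, 12.10, 12.29 and 12.19. With Serping1 this made 2 of the 8 genes, against 27.1% of all genes. The groups touched, since the lowest BYS sample (12.38) lay just under the highest SNS sample (12.39). With the channels scaled to the same median, the difference in C1qa was 0.51 and was not called (adjusted p = 0.204). C3 was higher than in SNS by 0.73 (SE 0.294, adjusted p = 0.0746), without overlap. This is a description, since C3 passed the filter through betamethasone conditions alone. For C3 there were 3 SNS values, 8.75, 8.28 and 8.24, because the spot of SNS replicate 1 was an outlier, with a local background of 312. The same spot on the same array had a local background of 108 in SNS replicate 2, the highest of the 3 values.

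The 20 microglial markers were all kept. Their mean log2 level ran from 10.10 to 10.33 in BNS and from 10.12 to 10.20 in BYS, and none of them was called between these conditions. Their median log2 difference between BYS and BNS was -0.04, 8 being higher and 12 lower. The 10 astrocyte markers had a median difference of 0.18, 9 being higher and none called. The part of either cell type in the values of C1q and C3 was not tested.

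**Figure D2:**
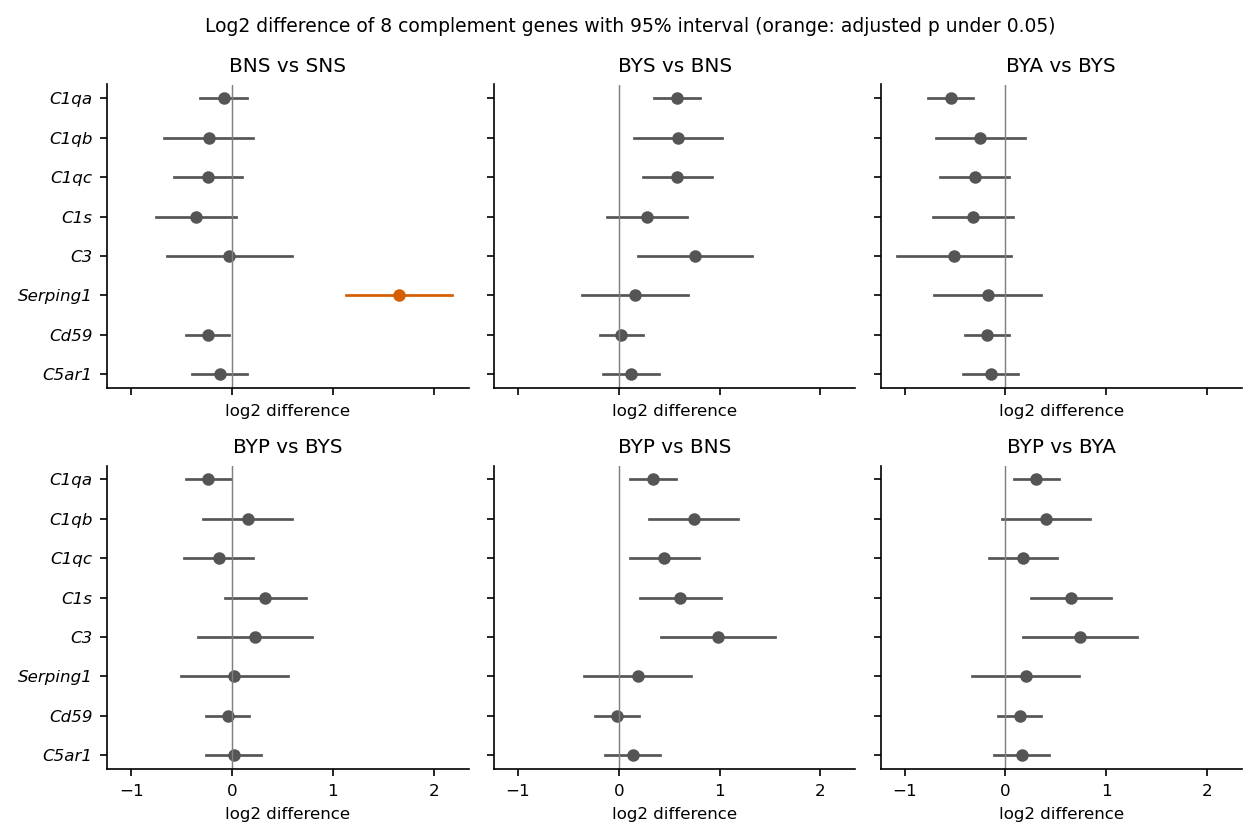
Log2 difference (horizontal axis) of the 8 genes kept, in 6 comparisons, with 95% intervals of the limma fit; orange marks an adjusted p under 0.05. Only Serping1 between BNS and SNS is called in these 6 panels, and the points of BYS vs BNS lie all above 0 and those of BYA vs BYS all below 0. C5ar1 passed the filter only through BYS.

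ACTH was compared with saline in rats with spasms through BYA and BYS, which share the BYS rats with the comparison above. All 8 genes were lower in BYA, with a median log2 difference of -0.28, and limma called none, where 0% of all genes were called. This count is also a description, since C5ar1 passed the filter only through BYS and differed by 0.23 with median scaling. At an unadjusted p under 0.05 there was 1 of the 8, C1qa, and 8.07% of all genes. C1qa was 12.31, 12.14, 12.12 and 12.21 in BYA, under all 4 BYS samples and within the range of SNS. It differed from BYS by -0.54 (SE 0.105, unadjusted p = 7.89e-05, adjusted p = 0.153), and its groups alone among the 8 did not overlap, against 1.48% of all genes lower without overlap.

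BYA replicate 4 was the highest BYA sample in several of the genes. C3 was 8.13, 8.26, 8.37 and 9.66 in BYA, so that 3 samples lay at 8.37 or below and replicate 4 within the range of BYP. The same sample was the highest of BYA in C1qb (14.31 against 13.14 to 13.39), in C1qc (10.35 against 9.58 to 9.90) and in C1s (9.92 against 9.26 to 9.42). It was within the range of the other BYA samples in C1qa, the highest by a small margin in Serping1 (11.89 next to 11.65), and the lowest in Cd59 and C5ar1. C3 differed between BYA and BYS by -0.51 (SE 0.267, adjusted p = 0.656), and by -0.85 without that sample, still not called. Replicate 4 shares its array with a male of another series, whose channel was not used.

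Against SNS, Serping1 and Cd59 were called in BYA, 2 of 8 against 31.3% of all genes. Cd59, which protects cells from the terminal complex, was 12.37, 12.24, 12.47 and 12.12 in BYA, below all SNS samples, a log2 difference of -0.40 (SE 0.102, adjusted p = 0.00708). This call rested on the way the signals were made, since the scanner's own processed signals gave a difference of 0.03 (adjusted p = 0.896) and median scaling gave -0.49 (adjusted p = 0.254). Between BYA and BNS limma called none of the 8, where 0.117% of all genes were called, none had an unadjusted p under 0.05 (13.1% of all genes), and the differences ran from -0.16 in Cd59 to 0.34 in C1qb.

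PMX53 was compared with saline in rats with spasms through BYP and BYS. Limma called none of the 8 genes, where 0.0351% of all genes were called, and 1 of the 8, C1qa, had an unadjusted p under 0.05 (8.49% of all genes). The samples of BYP and BYS overlapped in all 8, against 4.78% of all genes without overlap, and 5 were higher and 3 lower in BYP. C1qa was 12.47, 12.41, 12.45 and 12.66 in BYP, in the lower part of the BYS range, at -0.24 (SE 0.105, adjusted p = 0.562). C1s was 9.78, 10.10, 10.47 and 10.17 in BYP against 9.43, 9.57, 10.24 and 9.97 in BYS, at 0.33 (SE 0.190, adjusted p = 0.685). C3 was 8.89, 9.04, 9.63 and 9.81 in BYP, at 0.23 (SE 0.267, adjusted p = 0.899). The intervals leave room for changes of either sign in most of these genes, from -0.34 to 0.79 in C3 and from -0.28 to 0.60 in C1qb.

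BYP and BNS rats differed in both spasms and PMX53. In 5 of the 8 genes all BYP samples lay above all BNS samples, against 6.33% of all genes, and none was called by limma, against 1.5% of all genes, with 5 at an unadjusted p under 0.05 (17.8% of all genes). The 5 were C3 at 0.98 (1.98-fold, SE 0.267, adjusted p = 0.0712), C1qb at 0.74 (SE 0.209, adjusted p = 0.0773), C1s at 0.61 (SE 0.190, adjusted p = 0.103), C1qc at 0.45 (SE 0.162, adjusted p = 0.155) and C1qa at 0.34 (SE 0.110, adjusted p = 0.119). Without BYA replicate 4, whose spread enters the shared error, C3 (adjusted p = 0.0206) and C1qb (adjusted p = 0.0340) were called.

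Against SNS, C3 in BYP was called together with Serping1, 2 of 8 against 28.9% of all genes. C3 was higher by 0.96 (1.94-fold, SE 0.294, adjusted p = 0.0226), with all 4 BYP samples above the 3 SNS values. C3 was well above background in 3 of 4 SNS samples and passed the filter through betamethasone conditions alone, so this difference is a description. The call was lost without SNS replicate 3 (adjusted p = 0.0606), SNS replicate 4 (0.0775), BYP replicate 3 (0.0621) or BYP replicate 4 (0.0667), with arrays as random blocks (0.0611), with the processed signals (0.144) and by the methods' t-test after adjustment (0.0827).

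The treatments were also set against each other. All 8 genes were higher in BYP than in BYA, with a median log2 difference of 0.25, and limma called none, where 0.158% of all genes were called. The unadjusted p was under 0.05 in 3 of the 8 and in 13.6% of all genes. C3 differed by 0.74 (SE 0.267, adjusted p = 0.237), C1s by 0.65 (SE 0.190, adjusted p = 0.151) and C1qa by 0.30 (SE 0.105, adjusted p = 0.215). C1qa alone was without overlap, against 2.71% of all genes higher without overlap. With loess within arrays, which leaves out BYA replicates 3 and 4, C3 (1.13, adjusted p = 0.0180) and C1s (0.85, adjusted p = 0.0455) were called. For C3 these differences are a description, since it passed the filter through BYP but not through BYA.

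C5ar1, the receptor that PMX53 blocks, showed no difference that passed the test in any of the 10 comparisons. Its log2 levels were 8.20, 7.63, 7.64 and 7.80 in SNS and 7.80, 7.63, 7.62 and 7.73 in BNS. They were 7.72, 7.81, 7.96 and 7.78 in BYS, 7.99, 7.75, 7.56 and 7.39 in BYA, and 7.74, 7.80, 7.79 and 8.00 in BYP. The 5 conditions overlapped, and all 10 differences lay between -0.15 and 0.16. Between BYP and BYS the difference was 0.02 (95% interval from -0.26 to 0.29, adjusted p = 0.989), and between BYS and BNS it was 0.12 (-0.15 to 0.40). Median scaling gave 0.90 for BYP against BYS and called it (adjusted p = 0.0485), and -0.44 for BYS against BNS, so that for this dim probe the direction depended on the scaling.

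The spot of C5ar1 was 1.08 to 2.80 times the median of the 153 negative control spots of its channel. The flag followed the dye, with 2 of 10 Cy3 samples and 7 of 10 Cy5 samples well above background. By condition the flag was set in 1 of 4 SNS, 2 of 4 BNS, 4 of 4 BYS, 0 of 4 BYA and 2 of 4 BYP samples. In BYA C5ar1 was therefore not well above background in any sample, and no fold is given against it. The log2 differences of C5ar1 against BYA describe signals at the limit of the array.

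C3ar1, the receptor of C3a, was also close to the controls, at 0.732 to 2.36 times the negative controls. It was well above background in 0 of 4 SNS, 2 of 4 BNS, 3 of 4 BYS, 0 of 4 BYA and 2 of 4 BYP samples, in 1 of 10 Cy3 and 6 of 10 Cy5 samples. Its log2 levels were 7.24, 7.49, 7.50 and 7.68 in SNS and 7.75, 7.78, 7.82 and 7.97 in BYP, and those of the other conditions lay between 7.32 and 7.75. It was not tested, having failed the filter.

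**Figure D3:**
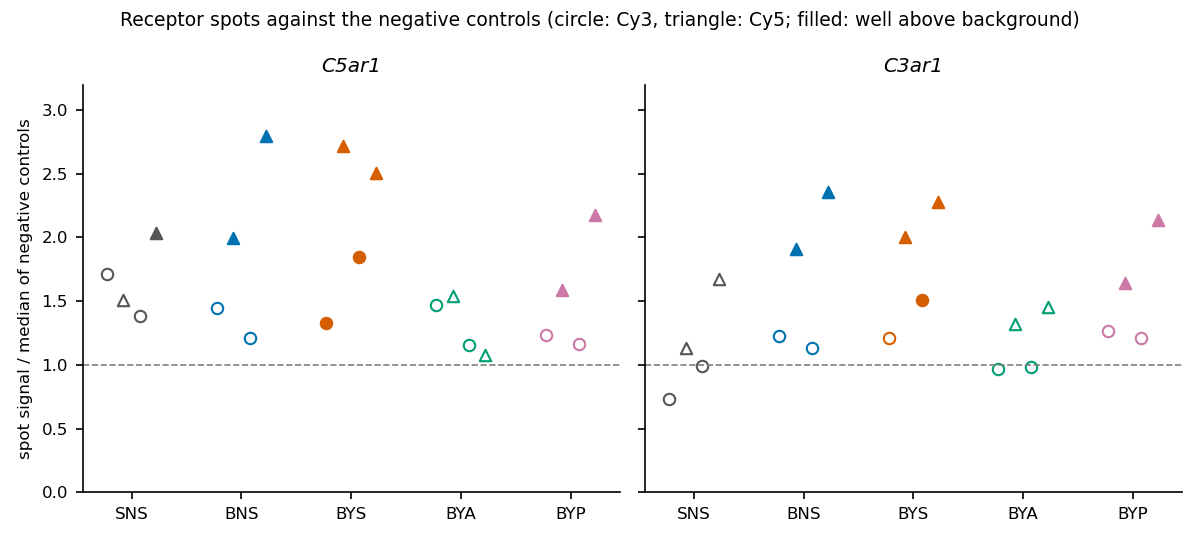
Spot signal divided by the median of the negative controls of the same channel (vertical axis) for C5ar1 and C3ar1 in each sample, by condition; circles are Cy3, triangles Cy5, filled symbols were well above background, and the dashed line marks a ratio of 1. The C5ar1 spots lie between 1.08 and 2.80 and those of C3ar1 between 0.732 and 2.36, with most filled symbols among the Cy5 samples.

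Over the samples, the r between C5ar1 and the other 7 members kept ran from -0.12 to 0.46. The genes closest to C5ar1 were Fat4 (r 0.787), Napepld (0.747) and Itga1 (0.746), over 20 samples that share slides within a condition. C5ar1 was well above background in only 9 of these 20 samples. The genes named in this paragraph as closest had the highest r of all genes compared, and no r was tested. The mean of the 3 C1q genes was closest to C2 (r 0.907), Cd74 (0.847) and Rgs1 (0.836), over 19 samples, where C2 is the protease that C1s cleaves and Cd74 the invariant chain of antigen presentation. C3 was closest to RT1-Da (0.863), a rat class II antigen, TC588776 (0.834) and Rab20 (0.813). C1s was closest to Vax1 (0.864), Rassf4 (0.851) and Lrrc4 (0.848), and Cd59 to Cep350 (0.891), Gclc (0.869) and Mbtd1 (0.862). Among the members themselves C3 and C1qb were closest (0.855, and 0.701 within conditions), ahead of C1qa with C1qc (0.770) and C1qb with C1qc (0.767).

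Promoters were available for 4 of the members, C1qa, C1qb, C3 and C3ar1, from RefSeq on the build GRCr8. Those of the 3 genes whose samples were all higher in BYS than in BNS are given here, 250 bases upstream of the start, all on the minus strand and read 5′ to 3′. Capitals mark AGGAAGT on either strand, a form of the site of PU.1, the myeloid factor. The C1qa stretch lies at chr5:154419934-154420183, that of C1qb at chr5:154407828-154408077 and that of C3 at chr9:2201340-2201589.
C1qa: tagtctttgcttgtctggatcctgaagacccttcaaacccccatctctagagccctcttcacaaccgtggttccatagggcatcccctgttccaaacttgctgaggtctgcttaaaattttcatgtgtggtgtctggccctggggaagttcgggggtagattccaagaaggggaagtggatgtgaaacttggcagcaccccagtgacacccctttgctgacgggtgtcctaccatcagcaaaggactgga
C1qb: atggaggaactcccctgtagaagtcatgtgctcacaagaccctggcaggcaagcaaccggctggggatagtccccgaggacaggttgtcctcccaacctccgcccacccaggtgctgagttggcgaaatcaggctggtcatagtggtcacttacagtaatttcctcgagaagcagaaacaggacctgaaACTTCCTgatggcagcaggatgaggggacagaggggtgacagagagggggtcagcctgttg
C3: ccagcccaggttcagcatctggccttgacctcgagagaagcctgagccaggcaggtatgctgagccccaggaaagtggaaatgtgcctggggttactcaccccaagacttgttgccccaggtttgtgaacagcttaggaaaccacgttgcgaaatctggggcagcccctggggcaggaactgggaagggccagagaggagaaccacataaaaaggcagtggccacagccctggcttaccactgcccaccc
AGGAAGT was found in 1 of the 4 promoters (C1qb, as its reverse complement) and in 7.08% of 33465 promoters of the same length. The half-site AGAACA of the glucocorticoid receptor was in 0 of the 4 and in 17.5% of all. Neither motif is part of the other, and their presence or absence in this window says nothing about binding.

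The rest of the pathway was read from lists of initiating, alternative and terminal, regulatory and receptor genes. Between BNS and SNS, 3 of the 5 initiation genes kept (of 15 listed) were called higher, as were 3 of 5 alternative and terminal genes (of 10) and 2 of 11 regulators (of 15), with 1 regulator lower and none of the 6 receptors called. Of all genes, 15.1% were called higher and 13.4% lower. Of the genes called higher, Cfb, Cfp, Masp1 and Fcna were well above background in 3, 2, 2 and 1 of the 4 SNS samples and passed the filter through betamethasone conditions alone, so that these counts are a description. The median log2 difference was 0.28 for initiation, 0.60 for alternative and terminal, -0.00085 for regulators and 0.09 for receptors, beside -0.04 for all genes. In BYS against BNS none of these 4 lists had a called gene, with medians of 0.15, 0.04, -0.035 and 0.04.

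The gene of these lists with the largest difference between BNS and SNS was Vtn at 1.05 (SE 0.208, adjusted p = 0.00126), which encodes vitronectin, an inhibitor of the terminal complex. Cfb, the protease of the alternative route, came next at 0.96 (SE 0.257). They were followed by C8g at 0.68, a chain of the terminal complex with 2 SNS values. Cfp at 0.60, encoding properdin, and C4a at 0.52, whose near-identical copy C4b the probe may also read, were smaller. C4a, C8g, Cfb, Cfp and Vtn were higher than SNS in all 4 betamethasone conditions, by 0.52 to 1.26. C4a, C8g and Vtn were called in each, always against the same SNS rats. Cfb and Cfp passed the filter through betamethasone conditions alone, so that their differences are a description. Vtn was 10.19 ± 0.32 (SD, n = 4) in SNS and 11.25 ± 0.40 in BNS, 11.19 ± 0.29 in BYS, 11.34 ± 0.14 in BYA and 11.21 ± 0.33 in BYP (SD, n = 4 each), so that, like Serping1, it did not separate these 4. C5, the source of C5a, did not pass the filter and was well above background in 10 of 20 samples, and C5ar2, the other receptor of C5a, in 0 of 20.

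**Figure D4:**
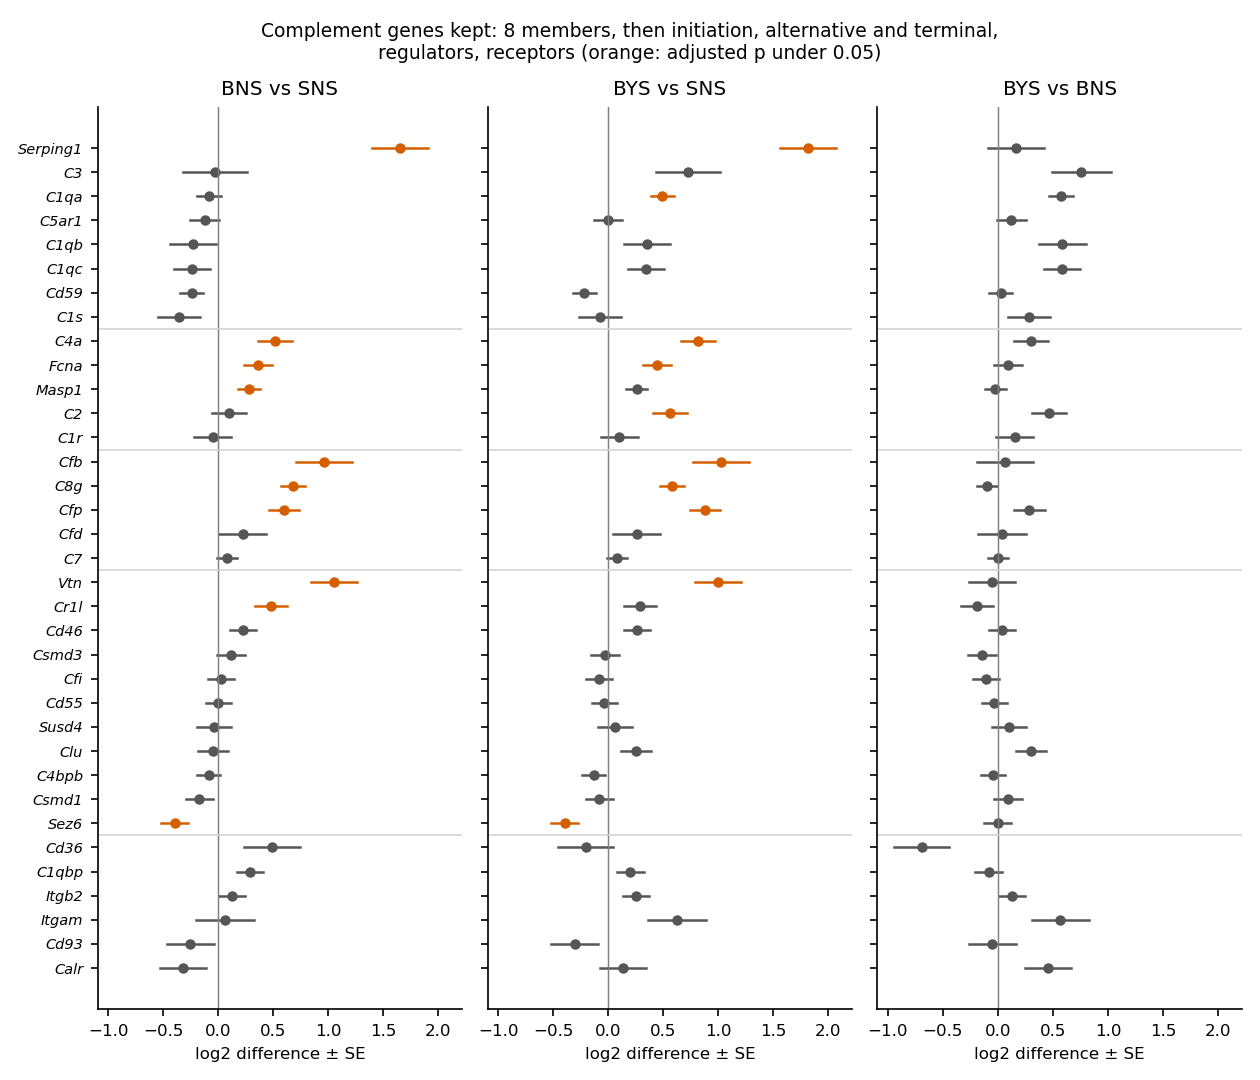
Log2 difference with SE (horizontal axis) of the complement genes kept, the 8 members first and then the initiation, alternative and terminal, regulatory and receptor lists divided by grey lines, in BNS vs SNS, BYS vs SNS and BYS vs BNS; orange marks an adjusted p under 0.05. Serping1 has the largest difference from SNS, 1.65 in BNS and 1.82 in BYS, and no gene is orange in BYS vs BNS.

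Genes that C5a is known to induce in myeloid cells were read beside its receptor. Of 10 listed, 6 were kept. Ccl2 and Il1b passed the filter only through BYP, where they are high, and Ccl3 only through the 3 conditions with spasms. Counts over the genes kept, p-values of Ccl2 and Il1b, and the p-value of Ccl3 against BNS are therefore not given. Ccl3, a chemokine of microglia, was 7.72 ± 0.05 in BNS, 9.95 ± 2.44 in BYS, 11.33 ± 1.09 in BYA and 12.55 ± 0.72 in BYP (SD, n = 4 each). It was higher in BYP than in BNS by 4.82 (SE 0.799), with the BYS samples spread from 7.79 to 12.08. It was well above background in 2 of 4 BNS and 4 of 4 BYP samples. Icam1, an adhesion molecule, differed by 2.24 (SE 0.460, adjusted p = 0.0218) and passed the background flag in 4 of 4 samples of each. Il1b, the cytokine IL-1β, differed by 1.22 (SE 0.282), being well above background in 2 of 4 BNS and 4 of 4 BYP samples. Tnf differed by 1.56 (SE 0.449, adjusted p = 0.0825) and Il6 was well above background in 0 of 20 samples. Between BYP and BYS the differences of Ccl3 (2.59, adjusted p = 0.382), Icam1 (1.25, 0.455) and Tnf (0.81, 0.674) were above 0 and were not called. That of Il1b was 0.71, a description, with 3 of 4 BYS samples well above background. Ccl2, a monocyte chemokine, was well above background in 0 of 4 SNS, 1 of 4 BNS, 3 of 4 BYS, 3 of 4 BYA and 4 of 4 BYP samples, and its levels ran from 7.36 to 7.46 in SNS and from 9.51 to 12.04 in BYP.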

How the data were processed

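The authors deposited 1 scanner file per array, with the mean signal and median local background of each of 44254 spots as intensities, flags of 0 or 1 for each spot as scores, and the software's processed signals. The submitters' notes name Agilent Feature Extraction 10.7.3.1. On 2 arrays the other channel belongs to another series, and its 82 columns were not used. Here the background was corrected with normexp (offset 50) in each channel, the 20 channels were quantile normalized, outlier spots (1.18%) were left out, and probes with at least 0.5 of their spots well above background in all 4 samples of a condition were kept (19883 of 30367). Levels are log2 values of the deposited intensities after these steps. The fit used limma 3.58.1 (lmFit and eBayes) in R 4.3.3, with statmod 1.5.0 for random blocks. It was tested on simulated data for BNS vs SNS, with independent samples and no array or slide effect. That simulation cannot show how the fit behaves where arrays or slides share an effect. The genes named are the 9 members in every comparison, the genes called in the complement and C5a lists (at most 6 a comparison by size), C5, C5ar2, Tnf, Il1b, Il6 and the 3 genes most alike. From the list of regulators 1 gene is not reported here and was left out of its counts. The members and lists were chosen with earlier results of these data known. The number of arrays limits the precision. The labels do not say which rats shared a litter, so p-values measure only the spread between these rats. On 9 of the 11 arrays both channels held rats of 1 condition, and the main fit treated them as independent. The correlation within arrays was 0.365. With arrays as random blocks, genes called went from 4881 to 2595 in BNS vs SNS and from 257 to 15 in BYP vs BNS. Alternatives in scaling, background, filter, blocks and test are given in the closing section.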

Additional observations from a re-analysis of the deposited data

Results flagged for a closer look

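In 43 groups of 4 samples (9 genes in 5 conditions, less the 2 with a missing value), 3 had a sample far from the others by Dixon's criterion, where chance gives about 1 in 20. C3 in BYA replicate 4 was at 9.66 on the log2 scale, with a gap of 0.846 of the group's range to the next sample. C1qa in BYS replicate 2 was at 12.38, under the other BYS samples, with a gap of 0.894 of the range. C1qc in BNS replicate 4 was at 9.85, above the other BNS samples, with a gap of 0.965 of the range.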

How the results depend on the processing

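Serping1 was called higher than SNS in all 4 betamethasone conditions under all 16 alternatives and all 20 fits without a sample, its log2 difference between BNS and SNS running from 1.39 to 1.80. The number of members called moved more. With the slide as a random block, whose correlation was -0.128 and which nearly coincides with the condition, it was 3 in BNS vs SNS, 2 in BYS vs BNS, 1 in BYA vs BYS, 2 in BYP vs BYA, and 5 each in BYP vs BNS, BYS vs SNS and BYP vs SNS. Of all genes this setting called 47.7% in BNS vs SNS, 1.02% in BYS vs BNS, 0.72% in BYA vs BYS, 5.99% in BYP vs BYA, 15.5% in BYP vs BNS, 46% in BYS vs SNS and 47.6% in BYP vs SNS. The methods' t-test without adjustment, and the same test combined with a fold cut-off set for each gene by its spread, gave the same counts, 2 in BNS vs SNS, 4 in BYS vs BNS, 1 in BYA vs BYS, 2 in BYP vs BYA, 1 in BYA vs BNS, 5 in BYP vs BNS and 4 in BYP vs SNS. Of all genes the t-test without adjustment passed 38.1%, 8.82%, 6.33%, 8.66%, 11.8%, 17.2% and 32.8% in these comparisons. The test combined with the cut-off passed 37.4%, 8.04%, 5.83%, 8.21%, 11%, 16.4% and 32.1% of all genes. After adjustment the methods' t-test called 2 in BNS vs SNS, 1 in BYS vs SNS and 1 in BYP vs SNS, where it called 18.8%, 13.5% and 11.8% of all genes. Median scaling called 2 in BYP vs BYS (C1qa and C5ar1), 1 in BYS vs SNS and 1 in BYA vs SNS, beside 16.5%, 8.47% and 8.2% of all genes. The processed signals called 1 in BYA vs SNS (11.4% of all genes) and 4 in BYP vs SNS (15.9%), namely Serping1 and the 3 chains of C1q, without C3. Loess within arrays called 2 in BYP vs BYA (3.05% of all genes), 2 in BYP vs BNS (2.39%) and 6 by the F test. The array as a random block left 1 in BYP vs SNS (15.5% of all genes), where C3 was tested and not called. The strict filter, which asks for all 20 samples well above background, removed C3 before the test. The 1 call it left in BYP vs SNS (29.7% of all genes) therefore says nothing about C3. A fit of only the 8 samples compared gave 1 in BYP vs BNS (1.01% of all genes). The F test called 7 with the slide block. For the F test the share of all genes was taken only in the main fit, at 30.3%.
The replicate numbers show no pairing of the samples. Deviations from the condition means correlated by 0.0031 on average between samples of 1 number (from -0.239 to 0.280) and by -0.00075 between different numbers. The replicate block in place of the dye gave 1 member in BYP vs BNS (C1qc, adjusted p = 0.0322) and 6 by the F test. Of all genes it called 2.01% in BYP vs BNS.
Without 1 sample, the members called ran from 0 to 1 in BYS vs BNS, from 0 to 2 in BYP vs BNS, from 1 to 3 in BYP vs SNS, from 2 to 3 in BYS vs SNS and BYA vs SNS, and from 2 to 6 by the F test. Of all genes these fits called 0% to 0.0644% in BYS vs BNS and 0.421% to 2.04% in BYP vs BNS. Against SNS they called 24% to 30.1% in BYP, 18.7% to 28.4% in BYS and 24.9% to 32.1% in BYA. The members called stayed at 1 in BNS vs SNS, where 20.8% to 29.9% of all genes were called. They stayed at 0 in BYA vs BYS (0% to 0.152% of all genes) and BYP vs BYS (0.0234% to 0.205%). The same held in BYP vs BYA (0% to 1.55%) and BYA vs BNS (0.00585% to 1%). The sign of small differences turned in some settings. Without 1 sample, the difference of Serping1 between BYS and BNS ran from -0.036 to 0.31 and that of C5ar1 between BYP and BYS from -0.057 to 0.062. With the processed signals Cd59 was 0.13 in BNS vs SNS and 0.030 in BYA vs SNS. C5ar1 was -0.44 in BYS vs BNS and 0.23 in BYA vs BYS with median scaling, 0.028 in BYA vs BYS with loess within arrays, and -0.019 in BYP vs BYS without background correction. The cause was not tested. Over all genes, calls between BNS and SNS numbered 4881, against 2656 with median scaling, 2342 with the processed signals and 8157 with the slide as a random block. Between BYP and BYS they numbered 6, against 2820 with median scaling. Without BYA replicate 3, whose dye label is in doubt, they went from 0 to 26 in BYA vs BYS. In the same fit they went from 27 to 265 in BYP vs BYA and from 20 to 171 in BYA vs BNS. Signal over background limits C5ar1 and C3ar1 in every condition.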
